A study of Mus musculus with 2 samples.

Results

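The cell cycle genes described here are 42 genes chosen by symbol from the 32285 genes of the count tables, by a rule that uses no measured value. They comprise 24 genes with roles in G2 phase and mitosis (G2/M members), 17 genes of S phase (S members) and Stmn1, which was kept apart from both sums. All 42 matched an annotated gene by identifier, and they lay on 17 chromosomes.

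Cells that divide copy their DNA in S phase and then separate the copies in mitosis. Genes for DNA replication are switched on at the border of G1 and S phase by E2F factors, and genes for spindle, kinetochore and mitotic kinases follow in G2, when the MuvB core with B-MYB and FOXM1 drives their promoters. Resting cells hold both sets low through pocket proteins and the DREAM complex, so transcripts of these genes mark cells in cycle. Microglia of the adult brain renew themselves slowly by local division, whereas myeloid progenitors and immature neutrophils of the bone marrow divide often and mature neutrophils do not divide.

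Brains of 23-week-old male littermates, either Disc1 WT/WT or homozygous for the Disc1 locus impairment allele (Disc1 LI/LI), were pooled, 6 mice per genotype. They were dissociated with actinomycin D, which blocks transcription during handling, and CD45low CD11b+ cells were sorted and counted as single cells with 3′ tags. Each genotype thus had 1 library, so genotype, pool and library cannot be told apart, no difference between genotypes has a replicate check, and no test was made. The allele was carried in every cell of the animals. Disc1 itself had 642 UMIs (unique molecular identifiers, 1 per captured transcript) or 19.1 CPM (counts in each 1000000 UMIs) in the WT/WT library and 22 or 0.461 CPM in the LI/LI library, which fits the labels.

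The files held 7038 barcodes with 33601957 UMIs for Disc1 WT/WT and 7834 with 47731571 UMIs for Disc1 LI/LI, with medians of 4234 and 4561.5 UMIs per barcode and 12 barcode sequences in common. A minimum of 200 genes and a limit of 10% mitochondrial UMIs removed 6 and 17 barcodes and left 7032 and 7817 cells. Cells were placed in 4 classes by genes other than the members. Microglia had at least 0.5% of UMIs from P2ry12, Gpr34, Tmem119, Siglech, Fcrls and Olfml3 and under 1% from S100a8 and S100a9. Neutrophils had at least 3% from S100a8 and S100a9, and progenitors at least 0.2% from Mpo, Elane, Prtn3 and Ctsg, the primary granule genes of early myeloid cells. In the WT/WT library these gates took 6180 microglia, 116 neutrophils, 7 progenitors and 729 other cells. In the LI/LI library they took 1950, 3622, 166 and 2079. The labels call all cells microglia, and 87.9% of WT/WT cells but 24.9% of LI/LI cells met the microglia gate, while 46.3% of LI/LI cells met that of neutrophils. The gates were applied in this order, so 68 LI/LI cells and 1 WT/WT cell that met both the neutrophil and the progenitor gate counted as neutrophils. Progenitors were much deeper than the rest, with medians of 27232 and 22828 UMIs per cell against 4271 and 3787.5 in microglia. Of 10 granulocyte-monocyte progenitor markers, Kit was at 0 in the 7 WT/WT progenitors and none was at 0 in the LI/LI progenitors. These markers include the gate genes Mpo, Elane, Prtn3 and Ctsg, so part of this was fixed by the gate.

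Levels are given as CPM, the UMIs of a gene in each 1000000 UMIs of its class, and each pair of values names the WT/WT library first and the LI/LI library second. The 3′ tags are not divided by gene length, so levels were compared between classes and libraries and not between genes. The 95% intervals are exact and cover counting error only, since UMIs of 1 cell are not independent. In such sums, fewer cells in cycle and less RNA per cell cannot be told apart.

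The members were highest in progenitors and lowest in microglia or neutrophils. Together, the G2/M members reached 83.6 and 127.5 CPM in microglia, 250.3 and 1174 in neutrophils, 7029 and 3443 in progenitors and 838 and 2058 in other cells. Progenitors thus held 84.1-fold (WT/WT) and 27.0-fold (LI/LI) the microglial level of mitotic transcripts. The S members reached 171 and 157 CPM in microglia, 121 and 336 in neutrophils, 1657 and 1820 in progenitors and 313 and 444 in other cells. Here the fold of progenitors over microglia was 9.69 and 11.6. In the WT/WT library the neutrophils lay below microglia in S members, at 0.710 of their level, and in the LI/LI library above, at 2.14-fold. Of the 81 S UMIs of WT/WT neutrophils, 50 lay in 1 cell that also met the progenitor gate. All 24 G2/M members, all 17 S members and Stmn1 had their highest level in progenitors in both libraries. The share of all genes with that order is not given.

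Every one of the 42 members was at least 2-fold higher in progenitors than in microglia in both libraries, where 13.5% of the 11681 genes tested were. The median log2 ratio of the members was 6.16 in the WT/WT and 4.85 in the LI/LI library, beside 0.21 and -0.51 over all genes. Folds spanned a wide range. Mcm3, a subunit of the replicative helicase, had the smallest, 3.51 and 4.70, followed by the sliding clamp gene Pcna with 3.94 and 4.90. Rrm2, the regulated subunit of ribonucleotide reductase, reached 210.3-fold in the WT/WT library and 94.9-fold in the LI/LI library. With cells thinned to 1000 UMIs, the 7 WT/WT progenitors held 7000 UMIs in all. A member without a UMI there was set to a floor of 429 CPM, so it could still be called higher than in microglia. The count of members at least 2-fold higher in both libraries was then 24. For that reason it is not comparable with the 42 above and does not show how far the folds depend on depth.

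**Figure D1:**
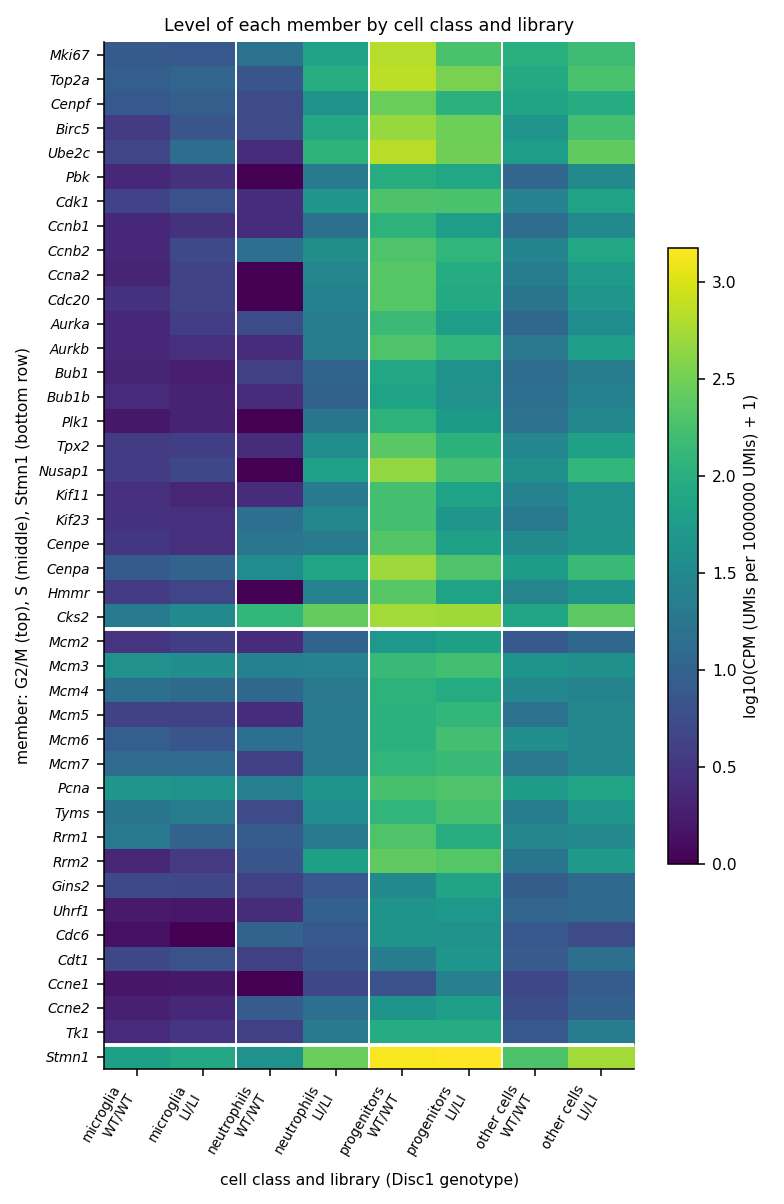
Levels of the 42 members (colour, log10 of CPM + 1) in the 4 cell classes of each library, with members grouped as G2/M, S and Stmn1. Progenitors hold the highest level of each member in both libraries (for Mki67 671 in WT/WT and 181 in LI/LI).

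Since the G2/M members moved together across the classes, the letters of their promoters were read from RefSeq (GRCm38.p6), which held 34 of the 42 members in a table of 32851 promoters of 250 bases before and 50 bases after the start. Pbk, Ccna2, Aurkb, Tpx2, Mcm4, Gins2, Ccne2 and Stmn1 had no entry in that table. Motifs were searched on both strands as the cell cycle genes homology region TTTGAA (CHR), the CCAAT box, and TTTNNCGC for E2F. CHR letters stood in 14 of 20 G2/M members, in 1 of 14 S members, Mcm2, and in 17.9% of all promoters. CCAAT letters stood in 18 of 20 G2/M members, 9 of 14 S members and 37.4% of all promoters, and both motifs together in 14 G2/M members, 1 S member and 6.95% of all promoters. For E2F the order was the opposite, with 8 of 14 S members, 1 of 20 G2/M members, Cdk1, and 5.17% of all promoters. Among further G2/M genes that are not members, 19 of 27 held CHR letters and 3 of 27 E2F letters, and among further S genes 5 of 20 and 6 of 20. A match is a description of letters and not a binding site.

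Up to 120 bases before the start are shown, 5′ to 3′ along the gene, for 4 G2/M members with CHR letters and 2 S members with E2F letters, chosen after the matches were seen. Capitals mark the letters of CHR (TTTGAA or its reverse complement TTCAAA), of CCAAT (or ATTGG) and of E2F. The stretches are chr7:135716380-135716499, minus strand (Mki67), chr11:99024190-99024309, minus strand (Top2a), chr4:118437353-118437463, minus strand (Cdc20), chr19:37376262-37376381, plus strand (Kif11), chr1:128359706-128359825, minus strand (Mcm6) and chr17:56303217-56303320, plus strand (Uhrf1).
Mki67: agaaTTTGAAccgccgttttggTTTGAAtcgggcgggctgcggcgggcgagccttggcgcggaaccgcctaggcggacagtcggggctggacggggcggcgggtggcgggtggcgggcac
Top2a: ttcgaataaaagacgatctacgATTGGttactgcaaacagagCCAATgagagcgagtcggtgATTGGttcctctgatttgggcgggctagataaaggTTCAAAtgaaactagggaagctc
Cdc20: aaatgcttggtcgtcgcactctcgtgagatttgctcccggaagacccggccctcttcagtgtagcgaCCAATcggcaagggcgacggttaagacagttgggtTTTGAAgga
Kif11: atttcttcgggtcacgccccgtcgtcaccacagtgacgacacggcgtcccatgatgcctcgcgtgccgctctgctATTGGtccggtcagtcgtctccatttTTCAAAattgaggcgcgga
Mcm6: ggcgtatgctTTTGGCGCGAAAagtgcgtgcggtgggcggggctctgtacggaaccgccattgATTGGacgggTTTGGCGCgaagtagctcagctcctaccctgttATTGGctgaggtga
Uhrf1: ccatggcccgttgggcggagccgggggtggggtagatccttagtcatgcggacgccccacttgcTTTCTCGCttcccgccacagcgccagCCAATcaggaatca
Mki67 had 2 CHR matches and no CCAAT in this stretch. Top2a had 1 CHR match downstream of 3 CCAAT matches, and Cdc20 and Kif11 each had 1 CCAAT match followed by 1 CHR match near the start. Mcm6 had 3 E2F matches, of which 2 on opposite strands overlap, and 2 CCAAT matches, and Uhrf1 had 1 of each.

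Among the G2/M members, cyclins and kinases come first. Ccna2, cyclin A2, which serves S phase and the entry into mitosis, was at 1.16 and 3.43 in microglia, 0 and 27.3 in neutrophils, 224 and 91.6 in progenitors and 20.6 and 54.1 in other cells. Ccnb2, a B-type cyclin and partner of Cdk1, was at 1.26 and 4.04 in microglia, 13.5 and 35.7 in neutrophils, 197 and 122 in progenitors and 26.3 and 80.2 in other cells. In both libraries the next level after progenitors was that of other cells. The level of Aurka, the kinase of the spindle poles, was 1.29 and 2.81 in microglia, 4.50 and 20.3 in neutrophils, 144 and 58.8 in progenitors and 10.4 and 34.3 in other cells. Its activator on spindle microtubules, Tpx2, was at 2.69 and 2.94 in microglia, 1.5 and 35.7 in neutrophils, 229 and 109 in progenitors and 28.4 and 65.8 in other cells. Plk1, the polo kinase of mitotic entry and exit, stood at 0.613 and 1.10 in microglia, 0 and 16.0 in neutrophils, 112 and 53.4 in progenitors and 14.9 and 29.7 in other cells. Cdk1 itself, the kinase that drives mitosis, was near equal in progenitors of both libraries, at 192 and 181. Cks2, a small subunit that docks Cdk kinases to substrates, was at 18.6 and 32.1 in microglia, 124 and 263 in neutrophils, 544 and 535 in progenitors and 71.9 and 239 in other cells. The level of Cks2 was thus at least 18.6 in each class of both libraries, neutrophils included.

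Genes of protein destruction at the end of mitosis were also highest in progenitors, with other cells next. Ube2c, the ubiquitin-conjugating enzyme of the anaphase-promoting complex, was at 3.61 and 12.8 in microglia, 1.5 and 116 in neutrophils, 693 and 311 in progenitors and 60.3 and 249 in other cells. Cdc20, the activator of that complex, was at 1.91 and 3.43 in microglia, 0 and 24 in neutrophils, 218 and 85.6 in progenitors and 15.8 and 44.8 in other cells. In WT/WT neutrophils Cdc20 had no UMI, for which the exact interval allows up to 5.53 CPM.

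Kinetochore and chromosome genes had the same order at the top. Cenpa, the histone H3 variant of centromeres, was at 7.01 and 9.42 in microglia, 34.5 and 72.1 in neutrophils, 517 and 200.2 in progenitors and 56.4 and 140.2 in other cells. Cenpe, a kinesin of the kinetochore, was at 2.28 and 1.71 in microglia, 16.5 and 19.3 in neutrophils, 213 and 64.3 in progenitors and 31.3 and 43.2 in other cells, and the large kinetochore protein gene Cenpf at 6.57 and 8.2 in microglia, 4.50 and 40.7 in neutrophils, 288 and 109 in progenitors and 71.3 and 90.7 in other cells. Birc5, survivin, a subunit of the chromosomal passenger complex, was at 2.72 and 5.87 in microglia, 4.50 and 81.8 in neutrophils, 485 and 302 in progenitors and 44.2 and 166 in other cells. Each of these was lower in LI/LI than in WT/WT progenitors. Top2a, the topoisomerase that untangles sister chromatids, lies at chr11:98992943-99024189 (mm10, minus strand) and was at 8.23 and 9.79 in microglia, 6.00 and 95.2 in neutrophils, 730.0 and 345 in progenitors and 87.5 and 186 in other cells. Mki67, at chr7:135689784-135716361 on the minus strand, encodes the protein that coats mitotic chromosomes and is the usual marker of cells in cycle. Its level was 7.01 and 6.61 in microglia, 15.0 and 68.3 in neutrophils, 671 and 181 in progenitors and 98.5 and 149.7 in other cells.

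For spindle genes progenitors again came first. Kif11, the motor that pushes spindle poles apart, was at 1.70 and 1.22 in microglia, 1.5 and 20.2 in neutrophils, 171 and 69.2 in progenitors and 24.5 and 41.6 in other cells. Kif23, a motor of the central spindle in cytokinesis, was at 1.80 and 1.71 in microglia, 13.5 and 29.3 in neutrophils, 171 and 46.6 in progenitors and 18.2 and 40.9 in other cells. Nusap1, which bundles spindle microtubules, was at 2.59 and 3.92 in microglia, 0 and 64.2 in neutrophils, 453 and 171 in progenitors and 38.8 and 124 in other cells, and Hmmr, a spindle protein that is also a hyaluronan receptor, was at 2.72 and 3.67 in microglia, 0 and 24.8 in neutrophils, 224 and 66.6 in progenitors and 27.2 and 42.8 in other cells. Nusap1 and Hmmr, with Pbk, Ccna2, Cdc20, Plk1 and the S member Ccne1, had no UMI in the 116 WT/WT neutrophils. Those cells held 667173 UMIs, against 21579721 in LI/LI neutrophils. The share of all genes without a UMI there is not given, so these zeros are no trait of the members.

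Among the S members, the helicase genes were present in every class. Mcm3 was at 39.5 and 35.2 in microglia, 24 and 24.6 in neutrophils, 139 and 166 in progenitors and 43.0 and 38.3 in other cells, and Mcm6, a further subunit of the same ring, at 8.0 and 6.12 in microglia, 13.5 and 20.1 in neutrophils, 107 and 167 in progenitors and 35.8 and 29.0 in other cells. Gins2, of the GINS complex that activates the ring, was at 4.05 and 3.79 in microglia, 3.00 and 6.39 in neutrophils, 32.0 and 70.8 in progenitors and 7.76 and 11.3 in other cells. Cdt1, which loads the ring on DNA in G1, was at 3.95 and 5.14 in microglia, 3.00 and 5.70 in neutrophils, 21.3 and 45.3 in progenitors and 7.16 and 13.5 in other cells. The WT/WT progenitor values of Gins2 and Cdt1 rest on 6 and 4 UMIs. Ccne1, cyclin E1 of the G1 to S border, was at 0.578 and 0.612 in microglia, 0 and 3.89 in neutrophils, 5.33 and 23.2 in progenitors and 3.88 and 7.45 in other cells, with 1 UMI in WT/WT progenitors.

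The enzymes of nucleotide supply and the clamp differed in how far microglia expressed them. Pcna, the clamp that holds polymerases on DNA, lies at chr2:132249162-132253314 and was at 44.7 and 40.5 in microglia, 22.5 and 43.3 in neutrophils, 176 and 198 in progenitors and 56.1 and 74.8 in other cells. Rrm1, the large subunit of ribonucleotide reductase, was at 18.5 and 9.06 in microglia, 7.49 and 19.8 in neutrophils, 197 and 93.5 in progenitors and 26.6 and 30.5 in other cells, whereas its small subunit Rrm2 was at 1.19 and 2.33 in microglia, 6.00 and 63.8 in neutrophils, 250.4 and 221 in progenitors and 16.4 and 52.1 in other cells. Thus in microglia Rrm2 was far below its level in progenitors, with Rrm1 less so. Tyms, thymidylate synthase, was at 16.4 and 20.7 in microglia, 4.50 and 33.9 in neutrophils, 123 and 178 in progenitors and 20.6 and 47.2 in other cells. Stmn1, which destabilises microtubules and is high in dividing cells and in neurons, was at 63.5 and 82.2 in microglia, 42 and 282 in neutrophils, 1401 and 1507 in progenitors and 196 and 542 in other cells.

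Cells with UMIs of several G2/M members were rare in microglia. A UMI of at least 3 different G2/M members was found in 25 of 6180 WT/WT microglia (0.405%, interval 0.262 to 0.597%) and 10 of 1950 LI/LI microglia (0.513%, 0.246 to 0.941%). The intervals overlap widely. After thinning each cell to 1000 UMIs the shares were 0.197% and 0.207%. In neutrophils the share was 3.45% in WT/WT and 9.11% in LI/LI, or 1.74% and 4.01% after thinning. Progenitors reached 100% and 94%, and after thinning 100% of 7 and 39.8% of 161 cells. Other cells were between these, at 4.80% and 19.0%, or 2.36% and 11.1% after thinning. For comparison, LI/LI neutrophils with 0.2 to 1% granule genes that did not meet the progenitor gate gave 1.61% at a median of 2701 UMIs and 0.0948% after thinning. The same WT/WT bin had 0 of 27 cells. Whether UMIs in these neutrophils came from free RNA was not tested. The thinned shares of microglia rest on 12 and 4 cells and that of the LI/LI neutrophil bin on 1.

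Most microglia had no G2/M UMI, 86.3% in WT/WT and 74.5% in LI/LI, and 12.4% and 22.5% had 1 member. At the other end, 22 WT/WT and 6 LI/LI microglia had at least 5 G2/M members, with medians of 17 and 15 of the 24. Between these ends, 54 WT/WT and 50 LI/LI microglia had 2 members, 2 and 3 had 3 members, and 1 and 1 had 4. The cells with at least 5 members were deeper, with a median of 8948.5 UMIs against 4267 in the remaining WT/WT microglia. In LI/LI the medians were 8205.5 against 3780. Microglial markers made up 2.22% and 2.00% of their UMIs, against 2.92% and 2.72% in the remaining microglia. The microglial markers include the genes of the microglia gate, so their presence was fixed by it. Monocyte markers made up 0.0122% against 0.0110% in WT/WT and 0.281% against 0.0248% in LI/LI, and B lineage markers 0.00341% against 0.00396% and 0.0847% against 0.0135%. Doublets were not removed, and their part was not tested.

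**Figure D2:**
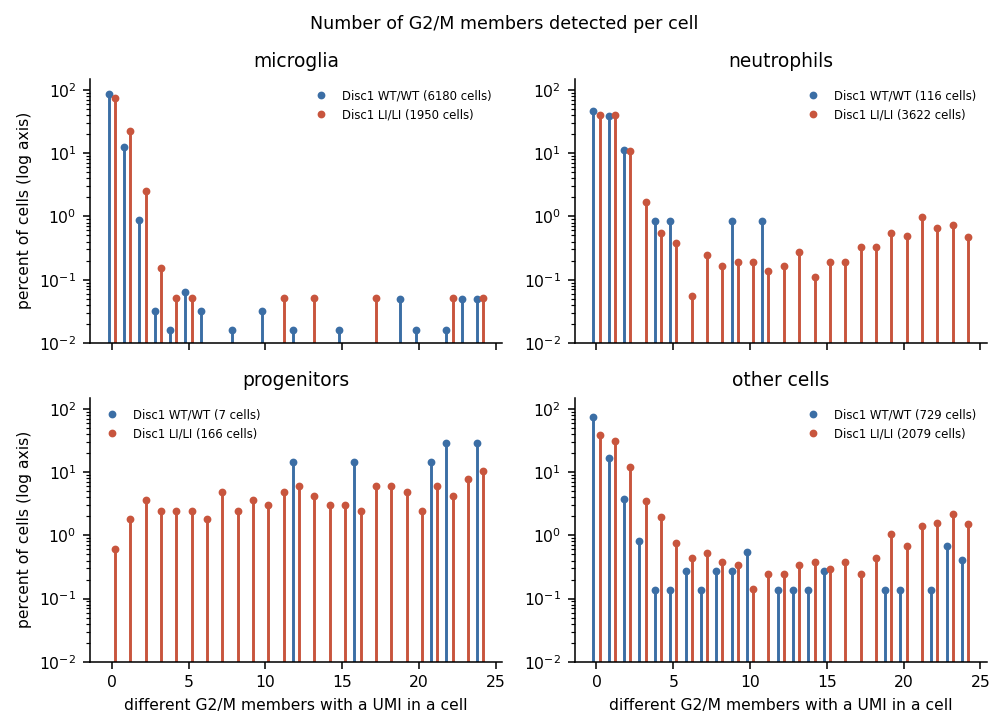
Percent of cells (logarithmic axis) by the number of G2/M members with a UMI, for each class and library. Microglia fall from 86.3% (WT/WT) and 74.5% (LI/LI) with none to single cells with up to 24 members, while LI/LI progenitors spread over the whole range.

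A large share of the microglial G2/M transcripts lay in those few cells. The 22 WT/WT cells held 61.3% of all G2/M UMIs of microglia but 7.74% of the S UMIs, and the 6 LI/LI cells held 44.3% and 5.14%. The cells were picked by their G2/M members and not by S members, which fixes part of this contrast, so it is given as a description. Within these cells the G2/M level was 7335 and 8157 CPM, beside 7029 and 3443 in all progenitors. The microglia were picked for G2/M members, which fixes part of this level, so it does not rank them against progenitors. Progenitors with at least 5 G2/M members had 7029 and 3553 CPM. Single members differed in the share of their UMIs that lay in such microglia. Taking for each gene the cells with at least 5 other G2/M members, Mki67 had 94.2% and 72.2% of its microglial UMIs there, Top2a 90.5% and 76.2%, Nusap1 97.4% and 56.2% and Hmmr 97.5% and 90%. By contrast Cks2 had 10.4% and 11.8% and Cenpa 23.3% and 26.0% of theirs. Among S members, Rrm2 had 82.9% and 63.2%, Tk1, the salvage thymidine kinase, 76.7% and 55.6%, and Ccne2, cyclin E2, 74.1% and 63.6%. Pcna and Mcm3 had 4.34% and 2.11% and 3.27% and 3.12%, so nearly all of their microglial UMIs lay in cells with few mitotic transcripts. Stmn1 had 23.1% and 15.8%.

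Detection in single cells is the same question asked cell by cell. In WT/WT microglia, Top2a had a UMI in 19 of 25 cells with Mki67 and in 0.227% of those without. Pcna had one in 16 of the 25 and in 17.4% of those without. In LI/LI microglia 4 of the 17 Mki67 cells had Top2a, and their median depth was 4310 UMIs against 8633 in the WT/WT Mki67 cells. Of 261 LI/LI neutrophils with Mki67, 200 had Top2a and 240 had Cks2, and Cks2 was also found in 41.1% of neutrophils without Mki67.

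**Figure D3:**
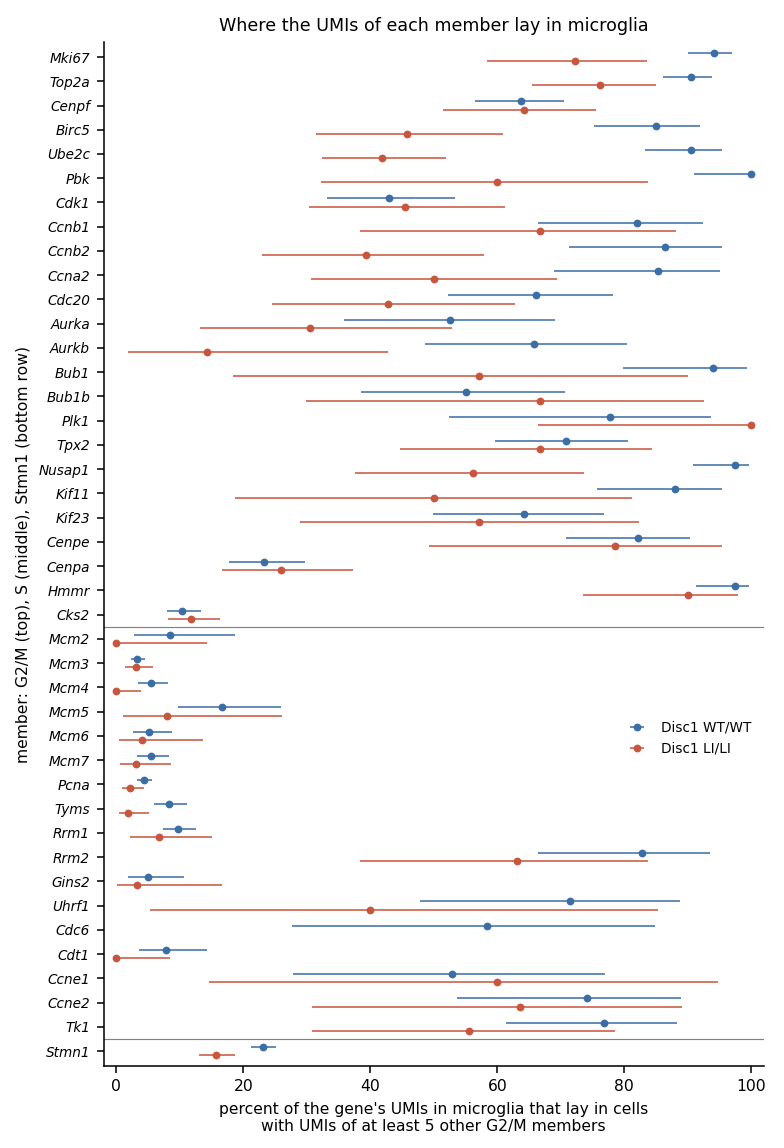
Percent of each member's microglial UMIs that lay in cells with UMIs of at least 5 other G2/M members, by library, with members grouped by list, as points with exact 95% binomial intervals. Mki67 and Top2a lie at the high end (94.2% and 90.5% in WT/WT), Pcna and Mcm3 at the low end (4.34% and 3.27%).

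Between genotypes, microglia of the LI/LI library had a higher sum of the G2/M members and a similar sum of the S members. For the G2/M sum, 83.6 and 127.5 CPM, the log2 ratio was 0.61 (interval 0.50 to 0.71). For the S sum, 171 and 157 CPM, it was -0.12 (-0.21 to -0.03), and it became 0.01 when totals were scaled by edgeR's TMM factors. Of the 42 members, 5 were at least 2-fold higher in LI/LI (background 3.91% of 13137 genes tested) and 1 was at least 2-fold lower (background 5.82%). TMM scaling shifted log2 ratios by 0.13 in microglia, 0.54 in neutrophils, 0.36 in progenitors and 0.49 in other cells. The counts of members in microglia were then 6 and 0, and no background share is given under that scaling. The interval of the ratio lay above 0 for 12 members and below 0 for 1. No share over all genes is given for such interval counts, here or in the other classes. The median log2 ratio was 0.45 for G2/M members and -0.0015 for S members, beside -0.18 for all genes. For the 33 further G2/M genes tested, which are not members, it was -0.02.

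The 5 higher members were all mitotic. They were Ube2c (3.61 and 12.8, log2 ratio 1.83, 1.43 to 2.24), Ccnb2 (1.26 and 4.04, 1.68), Ccna2 (1.16 and 3.43, 1.57), Aurka (1.29 and 2.81, 1.12) and Birc5 (2.72 and 5.87, 1.11). The LI/LI values rest on 105, 33, 28, 23 and 48 UMIs. Rrm1 was the 1 lower member (18.5 and 9.06, -1.03, -1.40 to -0.68). In its summed level Mki67 did not share the direction of Ube2c, with a log2 ratio of -0.09 (-0.55 to 0.35) that became 0.05 with TMM scaling. By cells with a UMI it was higher in LI/LI. Mki67 was found in 0.405% of WT/WT (interval 0.262 to 0.597%) and 0.872% of LI/LI microglia (0.509 to 1.39%). Cdc6, which loads the helicase with Cdt1, had 12 UMIs in WT/WT microglia and none in LI/LI, out of 29387053 and 8171291 UMIs. The interval of its log2 ratio reached up to 0.37, so it did not exclude equal levels. The cells with at least 5 G2/M members had 7335 and 8157 CPM of G2/M transcripts, and the remaining microglia 32.6 and 71.5. Over all microglia the 10 neutrophil markers together made up 0.0185% of microglial UMIs in WT/WT and 0.140% in LI/LI, and the 8 monocyte markers 0.0110% and 0.0266%, with none at 0, and their part in the difference was not tested. With the 5% deepest cells of each library left out, the log2 ratio was 1.33. That cut fell unevenly on microglia, leaving 5901 of 6180 in WT/WT and 1948 of 1950 in LI/LI. The share with at least 3 G2/M members was then 0.237% and 0.513%, against 0.405% and 0.513% before. The value of 1.33 thus compares a trimmed WT/WT class with a nearly untouched LI/LI class.

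In progenitors the mitotic genes were lower in the LI/LI library and the S genes were not. The G2/M sum was 7029 and 3443 CPM, with -1.03 (-1.11 to -0.95) as its log2 ratio. The S sum was 1657 and 1820, a log2 ratio of 0.13 (-0.03 to 0.30). Of 42 members, 16 were at least 2-fold lower (background 27.3% of 9676 genes tested) and 3 at least 2-fold higher (background 6.72%). With TMM scaling these counts were 7 and 4, for which no background share is given. The median log2 ratio was -1.12 for G2/M members and 0.23 for S members, beside -0.39 for all genes. The interval lay below 0 for 21 members and above 0 for 2, without a share over all genes. All 24 G2/M members had a ratio below 0, as had the median of all genes, and Pbk, Cdk1 and Cks2 were above 0 with TMM scaling.

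The lowest ratios among progenitors belonged to Mki67 (671 and 181, -1.89, -2.17 to -1.60) and Kif23 (-1.87). Hmmr and Cenpe followed with -1.75 and -1.73, then Nusap1 (-1.41), Cenpf (-1.41), Cenpa (-1.37) and Cdc20 (-1.35). Kif11, Aurka, Ccna2, Ube2c, Top2a, Tpx2 and Plk1 lay between -1.30 and -1.07. These 15 span motors, kinetochore, kinases and the destruction machinery. Rrm1 was the 1 S member that was at least 2-fold lower (-1.08), as in microglia. Gins2 (32.0 and 70.8), Cdt1 (21.3 and 45.3) and Ccne1 (5.33 and 23.2) were higher, on 6, 4 and 1 WT/WT UMIs. Cks2 was at 544 and 535, a log2 ratio of -0.02.

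The WT/WT side rests on 7 cells. Their G2/M levels ran from 2297 to 10319 CPM with a median of 7178, and those of the 166 LI/LI progenitors from 0 to 14564 with a median of 2417. The ranges overlap. For the S members the medians were 1356 and 1811. With the progenitor gate at 1%, which left 2 and 83 cells, the log2 ratio of the G2/M sum was -1.61. The 10 progenitor markers, which include the gate genes, made up 1.06% of progenitor UMIs in WT/WT and 3.15% in LI/LI. The 10 neutrophil markers made up 0.0389% (Retnlg and Ngp at 0) and 0.373% (none at 0), and the monocyte markers 0.657% and 0.690%. Their part in the difference was not tested.

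**Figure D4:**
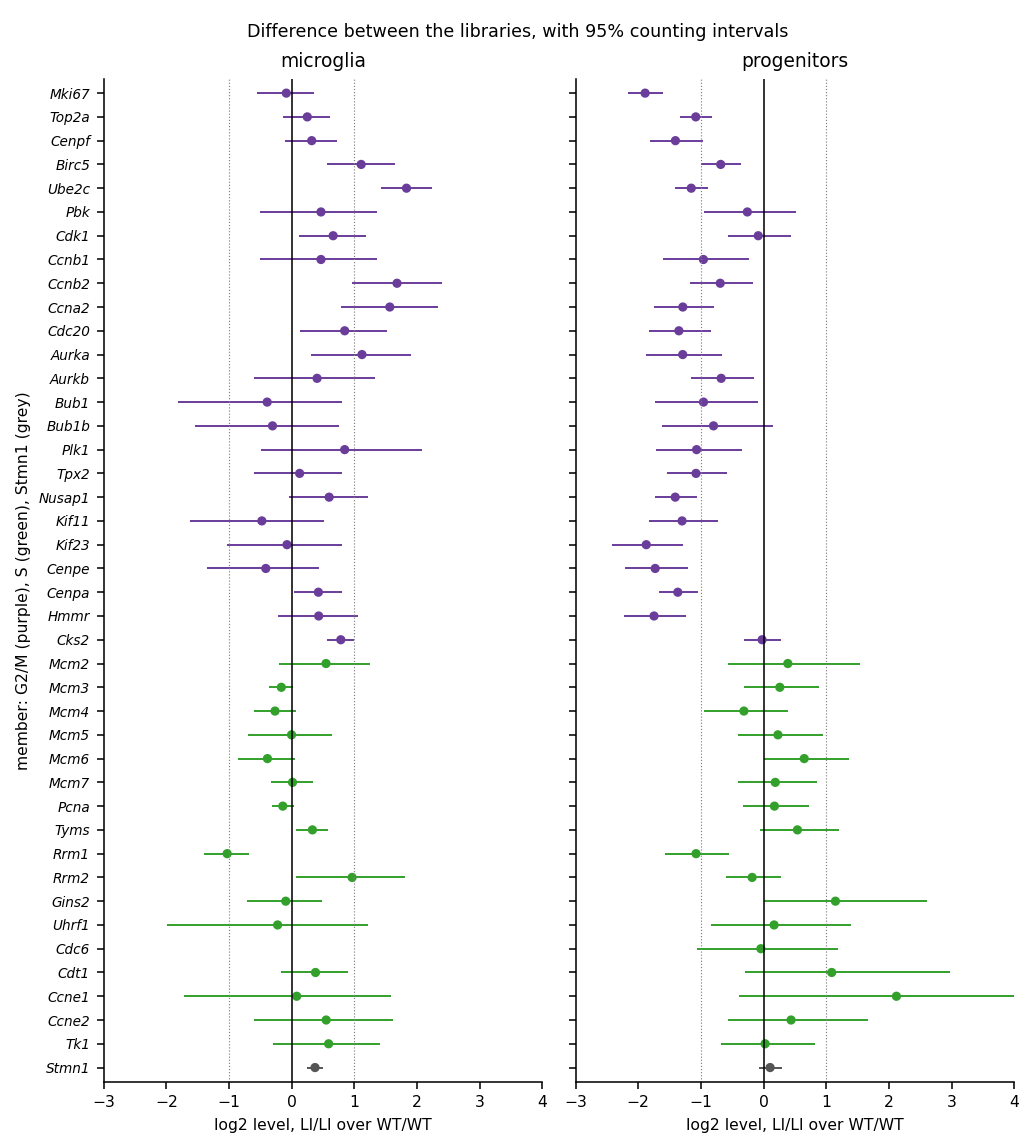
Log2 ratio of LI/LI over WT/WT for each member in microglia and in progenitors, with 95% intervals for counting error only. In microglia Ube2c is the highest (1.83) and Rrm1 the lowest (-1.03), and in progenitors the G2/M members lie below 0 and most S members above, with the Ccne1 interval running past the axis.

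In the neutrophil gate the members were higher in the LI/LI library. The G2/M sum was 250.3 and 1174 CPM, a log2 ratio of 2.23 (2.01 to 2.46), and the S sum 121 and 336, a log2 ratio of 1.47 (1.15 to 1.80). For the S sum, 50 of the 81 WT/WT UMIs lay in 1 cell that also met the progenitor gate. With that gate applied first, the S log2 ratio was 2.12. At least 2-fold higher were 33 of 42 members (background 4.70% of 11477 genes tested) and none was 2-fold lower (background 33.4%). The medians were 2.49 for G2/M members and 1.09 for S members, beside -0.58 for all genes, with genes at 0 set to the floor of 3 UMIs. In the 35 members with UMIs in both libraries the interval lay above 0 for 26, and Cdc6 alone had a ratio below 0 (-0.46, 0.08 with TMM scaling). These counts too have no share over all genes. Ube2c had 1.5 and 116 CPM and Top2a 6.00 and 95.2. The 10 progenitor markers, none at 0, made up 0.237% of UMIs in the WT/WT and 0.619% in the LI/LI neutrophils, and their part was not tested. The G2/M log2 ratio was 0.94 with the 5% deepest cells of each library left out, 0.74 with cells thinned and 0.94 as a mean over cells. Why the size changed was not tested.

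Neutrophils mature through stages that show in their granule genes, first the primary granule genes of promyelocytes and then Camp, Ltf, Ngp and Lcn2 of myelocytes and metamyelocytes, which cease in mature cells. LI/LI neutrophils were therefore set in 4 bins by the summed share of Camp, Ltf, Ngp and Lcn2. Their G2/M level was 1036 CPM under 0.2%, 486 from 0.2 to 1%, 512 from 1 to 5% and 1663 at 5% or more. Without the cells that also met the progenitor gate it was 421, 352, 351 and 1521, so the highest bin was highest either way. The S level was 645, 209, 221 and 371 with all cells, highest in the lowest bin, and 121, 88.7, 52.2 and 312 without the progenitor-gate cells, highest in the highest bin. In the highest bin 17.9% of 1173 cells had at least 3 G2/M members, against 1.61% of 1057 cells in the bin from 0.2 to 1%, and after thinning 9.80% against 0.0948%. Median depth was 7811 in the former and 2701 in the latter. In the 116 WT/WT neutrophils the G2/M levels were 145, 304, 223 and 276, which rest on 15 to 94 UMIs a bin. There, cells with at least 3 G2/M members were 0 of 31, 0 of 27 and 0 of 19 in the lower bins and 10.3% of 39 in the highest (interval 2.87 to 24.2%), or 7.89% of 38 without the cell that met the progenitor gate and 5.13% of 39 after thinning.

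**Figure D5:**
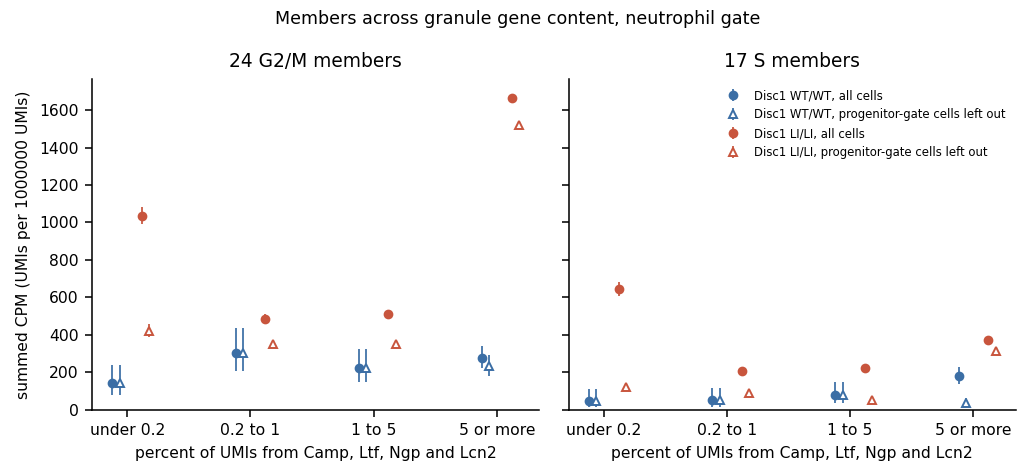
Level of the G2/M and S members (CPM) in neutrophils by the share of secondary granule genes, for each library, with and without cells that met the progenitor gate, and 95% intervals for counting error only. The LI/LI G2/M level is highest at 5% or more (1663, or 1521 without progenitor-gate cells), and the WT/WT levels stay between 145 and 304.

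In other cells the G2/M sum was 838 and 2058 CPM, a log2 ratio of 1.30 (1.24 to 1.35), and the S sum 313 and 444, a log2 ratio of 0.50 (0.41 to 0.60). Of 42 members, 20 were at least 2-fold higher (background 6.94% of 12954 genes tested) and none 2-fold lower (background 26.7%). With TMM scaling these counts were 33 and 0, for which no background share is given. The interval lay above 0 for 35 members and below 0 for 0, without a share over all genes. Mcm3, Mcm4 and Mcm6 had a ratio below 0 that TMM scaling turned above it. The median log2 ratio was 1.31 for G2/M members and 0.73 for S members, beside -0.40 for all genes. Monocyte markers, none at 0, made up 0.204% of the UMIs of other cells in WT/WT and 0.661% in LI/LI, and neutrophil markers 0.0244% and 0.158%, and their part was not tested. Other cells were placed in sets by at least 3 detected markers of a list, a choice made after the values were seen, and a cell may count in several sets. These sets overlapped and are not cell types. The neutrophil marker set took 1790 of 2079 LI/LI but 19 of 729 WT/WT other cells, and the microglial set 569 of 729 WT/WT cells. Siglech is on both the microglial and the dendritic cell list. Over all other cells the share with at least 3 G2/M members was 4.80% and 19.0%. At least 3 G2/M members were found in 16.1% of 118 WT/WT and 24.5% of 1492 LI/LI cells with monocyte markers. The share was 17.6% of 74 and 34.0% of 833 for granulocyte-monocyte progenitor markers, and 31.6% of 19 and 21.3% of 1790 for neutrophil markers. It was 7.63% of 131 and 17.8% of 286 for dendritic cell markers, and 5.10% of 569 and 18.3% of 846 for microglial markers. For T cell markers the shares were 2.04% of 49 and 8.54% of 82, for B lineage markers 0 of 16 and 12% of 184, and for border macrophage markers 2.16% of 185 and 0 of 44. Natural killer cell markers gave 0 of 23 and 1.28% of 78, endothelial markers 0 of 17 and 3.85% of 26, and erythroid markers 0 of 3 and 32% of 25. By the exact binomial interval the 0 of 16 allows up to 20.6% and the 0 of 44 up to 8.04%. The shares of these sets are not thinned, and the sets differed in depth. Median UMIs ran from 1862 (LI/LI endothelial markers) to 10834 (WT/WT erythroid markers). They were 6267 and 6840 for monocyte markers and 3967 and 6492 for microglial markers. The part of depth in these shares was not tested.

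How S and G2/M transcripts divided was compared in cells with UMIs of at least 8 of the 41 S and G2/M members, a number chosen after the values were seen. The cells were picked by the same members, more of them G2/M than S, which fixes part of the contrast, so the shares are a description. This rule took 159 of 166 LI/LI progenitors but 246 of 3622 LI/LI neutrophils. In LI/LI progenitors S members made up 34.6% of the members' UMIs in 159 such cells, against 23.9% in 246 LI/LI neutrophils and 15.7% in 293 LI/LI other cells. In WT/WT cells it was 19.1% in progenitors, 23.0% in microglia and 17.9% in other cells. The 7 such LI/LI microglia gave 14.6%, and the 2 WT/WT neutrophils 57.3% (interval 46.4 to 67.7%). Those 2 neutrophils held 51 S UMIs, of which 50 lay in the 1 cell that also met the progenitor gate. In cells thinned to 1000 UMIs the rule was at least 3 of the 41 members, so other cells were taken. The LI/LI shares were then 32.7% in progenitors, 22.2% in neutrophils and 15.8% in other cells. Microglia gave 20.4% in 20 WT/WT cells and 20.9% in 6 LI/LI cells under that rule. LI/LI progenitors with more S than G2/M UMIs numbered 70 of 159, and LI/LI other cells 42 of 293.

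Further genes of the pathway that are not members followed the members across classes. In progenitors 32 of 33 tested further G2/M genes and 28 of 30 further S genes were at least 2-fold above microglia in both libraries, with 0 lower, beside 13.5% of all genes higher and 15.9% lower. Hmgb2, a chromatin protein of dividing cells, was at 84.8 and 103 in microglia, 1269.5 and 2008 in neutrophils, 3831 and 2668 in progenitors and 491 and 1634 in other cells. Tubb4b, a tubulin, was at 45.5 and 52.6 in microglia, 49.5 and 118 in neutrophils, 591 and 364 in progenitors and 107 and 168 in other cells, and Smc4, a condensin subunit, at 16.8 and 16.9 in microglia, 37.5 and 101 in neutrophils, 517 and 249.9 in progenitors and 69.9 and 138 in other cells. For the S genes, Slbp, which binds histone mRNA, was at 90.8 and 78.3 in microglia, 70.4 and 94.3 in neutrophils, 298 and 279.6 in progenitors and 83.9 and 111 in other cells. Dut, the dUTPase, was at 7.21 and 11.5 in microglia, 18.0 and 78.3 in neutrophils, 261 and 478 in progenitors and 40.3 and 84.5 in other cells, and Rfc2, of the clamp loader, at 42.9 and 45.4 in microglia, 34.5 and 47.9 in neutrophils, 176 and 185 in progenitors and 46.9 and 73.6 in other cells.

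Of the regulators upstream of the members, the D-type cyclins and their kinases act first. At least 2-fold higher in progenitors than in microglia in both libraries were 4 of these 6, and 1 was lower (13.5% and 15.9% of all genes). Ccnd3, a D-type cyclin, was at 106 and 109.5 in microglia, 286 and 343 in neutrophils, 218 and 280.1 in progenitors and 121 and 338 in other cells. Ccnd1, the 1 that was lower, was at 181 and 194 in microglia, 42 and 7.51 in neutrophils, 10.7 and 10.2 in progenitors and 194 and 45.9 in other cells. Their kinase Cdk4 was at 64.0 and 65.6 in microglia, 12 and 24.4 in neutrophils, 187 and 305 in progenitors and 60 and 82.3 in other cells. Microglia thus had more Ccnd1 than progenitors in both libraries, the reverse of the members.

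CDK inhibitors hold these kinases in check, and 3 of the 6 tested were at least 2-fold higher in progenitors and 0 lower, read against the same backgrounds. The floor of 3 UMIs, in the few UMIs of the WT/WT progenitors, kept Cdkn1c from being called lower. Cdkn1c was at 27.4 and 29.6 in microglia and 0 and 1.30 in progenitors. Cdkn2d, p19Ink4d, was at 13.7 and 26.9 in microglia, 181 and 269.7 in neutrophils, 202 and 193 in progenitors and 45.7 and 367 in other cells. Cdkn1b, p27Kip1, was at 112 and 86.8 in microglia, 256 and 189 in neutrophils, 90.6 and 48.7 in progenitors and 127 and 113 in other cells, and Cdkn1a, the p53 target p21, was at 23.8 and 33.9 in microglia, 13.5 and 55.6 in neutrophils, 79.9 and 69.0 in progenitors and 130.5 and 149 in other cells. Of E2F factors and pocket proteins, 6 of 14 tested were higher and 2 lower, beside 13.5% and 15.9% of all genes. Rb1, the retinoblastoma protein gene, was at 87.3 and 44.5 in microglia, 37.5 and 19.6 in neutrophils, 58.6 and 22.4 in progenitors and 68.7 and 34.6 in other cells. Tfdp1, the dimer partner of E2F factors, was at 16.5 and 14.8 in microglia, 46.5 and 75.6 in neutrophils, 101 and 150.2 in progenitors and 19.7 and 29.7 in other cells, and E2f3 at 58.6 and 49.9 in microglia, 25.5 and 7.79 in neutrophils, 32.0 and 24.5 in progenitors and 14.9 and 8.30 in other cells. Rb1 and E2f3 were lower in progenitors than in microglia in both libraries, unlike every member, but neither was 2-fold lower in both. Those called lower were E2f5, at 15.2 and 11.3 in microglia and 5.33 and 2.34 in progenitors, and Rbl2. Rbl2 was at 50.7 and 28.5 in microglia and 21.3 and 13.3 in progenitors. The WT/WT progenitor values of E2f5 and Rbl2 rest on 1 and 4 UMIs, so these calls are weak.

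Between genotypes in progenitors, 17 of 34 further G2/M genes were at least 2-fold lower and 0 higher in LI/LI, beside the backgrounds of 27.3% and 6.72% above. Of 30 further S genes 1 was lower and 6 higher. In microglia 1 of 33 further G2/M genes was higher and 1 lower, and 1 and 2 of 30 further S genes. The backgrounds in microglia were 3.91% higher and 5.82% lower. The median log2 ratio in microglia was -0.02 for further G2/M genes and -0.14 for further S genes, beside -0.18 for all genes.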

How the data were processed

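Whole-number UMI counts per gene and barcode were deposited by the authors as filtered matrices, 1 per library. Per the file headers they came from Cell Ranger 6.1.2, and per the labels from STAR on mm10 and Seurat 3.0.1. The study's methods give a smaller total of cells than the 7038 and 7834 barcodes in the matrices and state no filter that leads to it, and no annotation of cells was used here. Chips B and G are both named in the methods without saying which library used which, so chip and genotype cannot be told apart.

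Counts were summed over the cells of each class and divided by the class total (Python 3.11.15, numpy 2.4.6, pandas 2.3.3). Intervals of levels (exact Poisson), ratios and shares (exact binomial) came from scipy 1.17.1 at 95%. TMM factors came from edgeR 4.0.16, and no test of it was used, since 1 library per genotype leaves no replicate. Calls needed at least 10 UMIs over both libraries and a 2-fold difference, with a floor of 3 UMIs for a count of 0. The log2 ratio and its interval were tested on simulated counts with known folds. Those counts were independent Poisson draws, unlike UMIs of 1 cell, and the sums and the floor were not part of it. Doublets were not removed. The methods name no such step, and leaving out the 5% of cells with the most UMIs was an alternative. Other alternatives changed the cell filter, the gates, their order, the depth, the scaling, the minimum of UMIs and the number of members.

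Genes described in each class were the 5 members of each list with the most UMIs in progenitors, Mki67, Top2a, Pcna, Stmn1, every member at least 2-fold different in microglia or progenitors, and the 3 genes with the most UMIs of each further list. Single values of Cdk1, Cdc6, Tk1, Ccne2, Cdkn1c, E2f5 and Rbl2 were added after the values were seen. The rule for the members uses no measured value, but the members and lists were chosen with earlier results of these data known. The groups came from the genotype label.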

Additional observations from a re-analysis of the deposited data

Results flagged for a closer look

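The G2/M sum had a different direction between genotypes in progenitors than in the remaining classes. Its log2 ratio of LI/LI over WT/WT was -1.03 in progenitors, against 0.61 in microglia, 2.23 in neutrophils and 1.30 in other cells. The S sum had a log2 ratio of -0.12 in microglia and 0.13 in progenitors, and the microglial one was 0.01 with TMM scaling. With 1 library per genotype these differences between classes were not tested.

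Barcodes that the cell filter removed also held G2/M transcripts. The 6 removed WT/WT barcodes had 53 G2/M UMIs, of which 30 were in 1 barcode with 12 different members, and the 17 removed LI/LI barcodes had 63, with at most 19 in 1 barcode.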

How the results depend on the processing

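Of 204 values recomputed under the alternatives, 138 stayed within their counting interval or within 1.5 times the count, 65 moved beyond it and 1 reversed. The cause was not tested for any of them. No paired analysis was possible because each genotype had 1 library, which also leaves no replicate to leave out.

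With TMM scaling the S sum in microglia reversed to a log2 ratio of 0.0087, and the G2/M sum was 0.74 in microglia, 2.77 in neutrophils, -0.67 in progenitors and 1.78 in other cells. The S sum was 2.01 in neutrophils, 0.49 in progenitors and 0.99 in other cells. Members at least 2-fold lower were then 0 in microglia and 7 in progenitors, and 33 were higher in other cells, without a background under this scaling. As a mean over cells, the G2/M log2 ratio was 0.82 in microglia, 0.94 in neutrophils, -0.88 in progenitors and 1.62 in other cells, and the S ratio 1.02 in neutrophils.

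With cells thinned to 1000 UMIs, the G2/M log2 ratio was 0.74 in neutrophils and 1.72 in other cells, and the S ratio 0.85 in neutrophils and 0.77 in progenitors. The shares of cells with at least 3 G2/M members were 0.197% and 0.207% in microglia (WT/WT and LI/LI), 2.36% and 11.1% in other cells, 4.01% in LI/LI neutrophils and 39.8% in LI/LI progenitors. Members at least 2-fold higher were 3 and lower 3 in microglia, and 2 and 18 in neutrophils, where the floor of 3 UMIs was 26.1 CPM in the 115 thinned WT/WT cells against 0.829 in LI/LI, so these counts are not comparable. Members higher in progenitors than in microglia were 24, a count that is not comparable either, as the floor was 429 CPM in WT/WT progenitors.

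With the 5% of cells with the most UMIs left out, the G2/M log2 ratio was 1.33 in microglia, 0.94 in neutrophils and 2.43 in other cells, and the S ratio 0.95 in other cells. The cut was made over each whole library, so it left 5901 of 6180 WT/WT but 1948 of 1950 LI/LI microglia. No WT/WT progenitor remained, so no value could be given there. The shares were 0.237% in WT/WT microglia, 0% and 4.13% in WT/WT and LI/LI neutrophils, 81.2% in LI/LI progenitors, and 2.80% and 16.7% in other cells.

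With the microglia gate at 1% and the neutrophil gate at 5%, the ratios in other cells were 2.23 (G2/M) and 0.81 (S), and the shares 0.139% and 0.169% in microglia and 2.09% and 14.1% in other cells. With the progenitor gate at 1%, the ratios were -1.61 (G2/M) and 0.38 (S) in progenitors and 1.17 and 0.65 in other cells, and the LI/LI share in other cells 21.8%. With the progenitor gate first, the S ratio in neutrophils was 2.12, the LI/LI neutrophil share 7.4%, 1 member was lower in neutrophils and 1 higher in progenitors.

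At least 2 members were found in 1.28% and 3.08% of microglia, 14.7% and 19.9% of neutrophils, 97.6% of LI/LI progenitors, and 8.50% and 31.0% of other cells. At least 5 were found in 6.87% of LI/LI neutrophils, 89.2% of LI/LI progenitors and 13.5% of LI/LI other cells.

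Few cells limit the WT/WT values of neutrophils (116 cells) and progenitors (7 cells).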
